A study of Mus musculus with 16 samples.

Results

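Ly6c2, Chil3, Thbs1, Vcan, Fn1, Ace, Ear2, Adgre4, Cx3cr1 and Treml4 are genes by which mouse monocyte subsets are told apart, and they are described here in myeloid cells of MC38 tumors and of spleens. The 10 genes were chosen by symbol out of 24469 symbols in the count tables, with earlier results of these data known. They were read in cells with at least 5 Lyz2 unique molecular identifiers (UMIs, each marking 1 captured RNA molecule) and no UMI of a Cd3 gene. Cells with at most 1 UMI summed over C1qa, C1qb and C1qc are called C1q-low below, and cells with 2 or more are called C1q-high.

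Sorted CD45+ cells of subcutaneous MC38 tumors, a mouse colon carcinoma line, and of spleens were profiled by droplet single-cell RNA sequencing in a study of the thymic gene Aire and of PD-1 blockade. The 8 CD45+ libraries used here are 1 tumor and 1 splenic library of each of 4 conditions, which are Aire+/+ with isotype control antibody, Aire+/+ with anti-PD1, Aire-/- with isotype control and Aire-/- with anti-PD1. Values listed per library follow that order. Mice were C57BL/6 females of 8 weeks, and antibody doses of 5 mg/kg were given on day 0, day 3, day 7, day 10 and day 14 before harvest on day 19. The methods describe pooling of the tumors from 4 to 6 animals for each condition, and of the spleens, so each library is a pool and no condition has a replicate within a tissue. Cells of 1 library are not replicates. In their flow cytometry section, the methods describe enzymes for freeing tumor cells and mechanical dispersion for spleens. How the sequenced cells were freed is not stated further. If they were prepared in that way, tissue and preparation cannot be told apart in any comparison of tumor and spleen. The Aire transcript was counted at 0, 2, 1 and 0 UMIs among tumor cells and at 2, 5, 4 and 0 among splenic cells of the 4 conditions, which is too few to check the genotype labels.

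Monocytes leave the bone marrow as classical cells, which carry Ly6C on their surface and enter inflamed tissue, where many become macrophages. Nonclassical monocytes arise largely from classical ones under control of Nr4a1, survive through Cx3cr1 signaling and patrol the walls of blood vessels. The spleen holds a reservoir of both, and C1q is made chiefly by macrophages. Among the classical genes, Ly6c2 encodes a Ly6C surface antigen, Chil3 a chitinase-like secreted protein, and Thbs1, Vcan and Fn1 the matrix proteins thrombospondin-1, versican and fibronectin. Among the nonclassical genes, Ace encodes angiotensin-converting enzyme, Ear2 a secreted ribonuclease, Adgre4 an adhesion G protein-coupled receptor, Cx3cr1 the receptor of fractalkine and Treml4 a receptor of the TREM family. The genes lie on chromosomes 15 (Ly6c2), 3 (Chil3), 2 (Thbs1), 13 (Vcan), 1 (Fn1), 11 (Ace), 14 (Ear2), 9 (Cx3cr1) and 17 (Adgre4 and Treml4).

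Of 17769 barcodes, 17668 passed the filter of at least 200 genes and at most 20% mitochondrial UMIs, and 4968 were Lyz2-high cells without Cd3 UMIs. The tumor libraries held 38930017, 28760714, 24639370 and 23282799 UMIs in all cells, and the splenic libraries 12131827, 10927391, 11179227 and 12618095. C1q-low cells numbered 817, 546, 491 and 395 in tumors and 214, 134, 126 and 84 in spleens. Their median depth was 11411, 11845, 11929 and 10823 UMIs per cell in tumors and 9206, 7896.5, 8557.5 and 8003 in spleens. C1q-high cells numbered 907, 641, 439 and 167 in tumors and 4, 0, 2 and 1 in spleens. They made up 52.6%, 54.0%, 47.2% and 29.7% of the Lyz2-high tumor cells, and between 0 of 134 and 1.83% in spleens, where 0 of 134 allows up to 2.72% (exact Clopper-Pearson interval of 95%). C1q-high cells were thus a large class in tumors and were nearly missing from spleens, which limits the tissue comparison to C1q-low cells. Pairs of CD45+ libraries shared 3 to 16 barcodes, at most 0.781% of a library, and at most 3 of the shared barcodes of a pair were Lyz2-high cells.

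The label of monocytes was checked against marker lists in the C1q-low cells. Csf1r, the growth factor receptor of the monocyte lineage, was at 508, 486, 453 and 431 CPM (UMIs of the gene per 1000000 UMIs of the same cells) in tumors and 637, 707, 777 and 769 in spleens. The Cd3 genes were at 0 by construction. Neutrophil markers summed to 584, 578, 218 and 361 CPM in tumors and 7132, 8521, 4992 and 44507 in spleens, with 10 of 10 markers detected in every spleen and S100a8 or S100a9 the most abundant. The Aire-/- anti-PD1 spleen stood apart in this, and 6 of its 84 C1q-low cells, those with at least 10 UMIs of S100a8 and S100a9 summed, held 53.7% of its Chil3 UMIs. The same share was 13.2%, 8.12% and 5.01% in the other spleens and 0.525% to 8.68% in tumors, so Chil3 is given below with and without such cells. Conventional dendritic markers summed to 44.7 to 188 CPM in tumors and 167 to 468 in spleens, with Cd209a the most abundant. B cell markers summed to 4.81 to 8.86 and 36.7 to 250, NK markers to 7.50 to 146 and 0 to 99.4, and plasmacytoid markers to 455 to 795 and 169 to 276, most of it Bst2. Splenic red pulp macrophage markers summed to 127 to 231 in tumors and 73.3 to 110 in spleens, most of it Hmox1, with Cd5l at 0 in 6 of 8 libraries. Platelet markers reached 83.3 in tumors, red cell markers 29.3 in spleens and cell cycle markers 46.2, and those of eosinophils, basophils and tumor or stromal cells stayed at or under 6.50 in each library. Ptprc, which encodes CD45, was at 484 to 705 in tumors and 756 to 822 in spleens. Genes of dissociation and stress, led by Fos, summed to 6687, 6068, 4751 and 4271 in tumors and 676, 467, 541 and 814 in spleens. Cells with a UMI of B or NK marker genes made up 6.11% to 8.42% of C1q-low cells in tumors and 19.6% to 21.6% in spleens, and those with a UMI of dendritic marker genes 5.39% to 14.2% and 16.4% to 22.6%. Together with the neutrophil marker cells above, these were 14.3% to 19.2% of the cells in tumors and 32.5% to 45.2% in spleens, so the share of such cells differed between the tissues. The part of these markers in the tissue differences was not tested, except where values without the cells are given.

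The first comparison asked how the subset genes differ between tumor and spleen in cells of the same gate. UMIs of the C1q-low cells were summed per library and compared in edgeR over the 4 pairs of tumor and spleen of the same condition, with the log2 difference given as tumor over spleen. Of all 9782 genes tested, 52.3% passed an adjusted p of 0.05, 26.9% higher in tumors and 25.3% higher in spleens. All 10 members were tested, and 9 passed, 3 of them higher in tumors and 6 higher in spleens. The median log2 difference of the members was -1.19 beside -0.06 over all genes, and their median absolute difference was 1.98 beside 0.52. Scaling by total UMIs in place of the trimmed mean of M-values (TMM) moved the median over all genes to -0.44 and the share of called genes that were higher in tumors from 51.5% to 25.3%, so directions are relative to the scaling. No member changed its sign under that scaling.

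**Figure D1:**
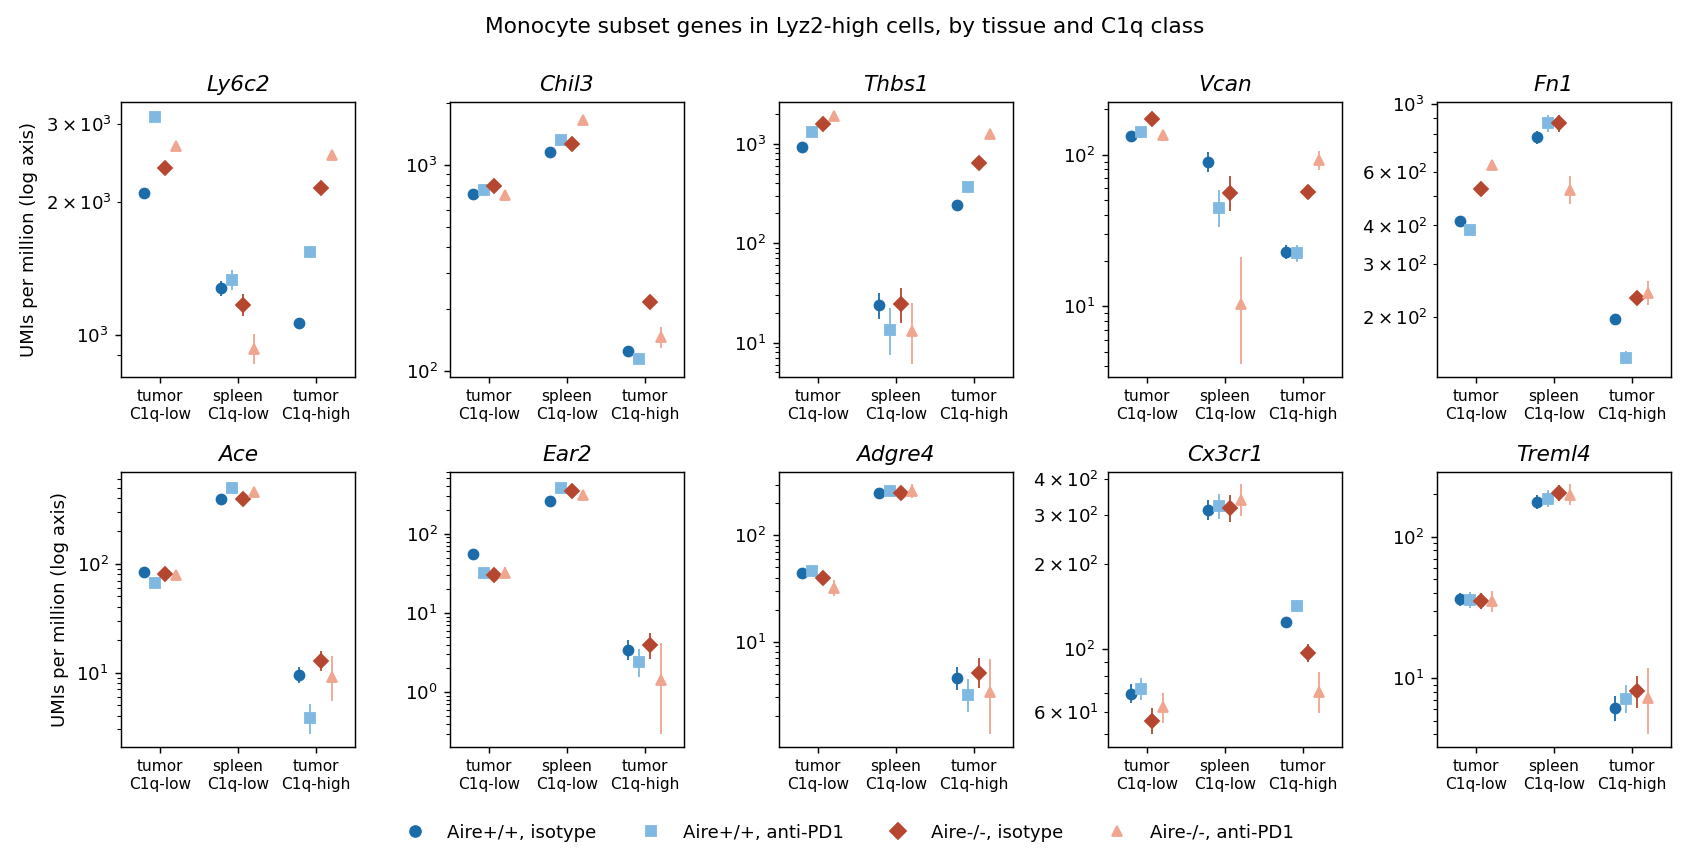
CPM of each member (y axis, logarithmic) in C1q-low cells of the 4 tumor and 4 splenic libraries and in C1q-high cells of the 4 tumor libraries, with exact Poisson intervals of 95% for counting error. Thbs1 was at 933 to 1915 in C1q-low tumor cells and at 13.2 to 24.1 in splenic ones, and the 5 nonclassical genes were higher in every splenic library than in every tumor library.

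Ly6c2 was at 2095, 3106, 2382 and 2676 CPM in C1q-low tumor cells and at 1277, 1333, 1169 and 930 in splenic ones. Every tumor library was above every splenic library. The fitted log2 difference was 1.504 (SE 0.11, adjusted p 1.7e-07), higher in 4 of 4 pairs.

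Thbs1 was at 933, 1322, 1590 and 1915 in tumors and at 23.6, 13.4, 24.1 and 13.2 in spleens, where the counts were 46, 15, 26 and 9 UMIs. The lowest tumor library was far above the highest splenic one. This was the largest difference among the members, with a log2 difference of 6.48 (SE 0.21, adjusted p 8.0e-11, 4 of 4 pairs), at rank 98 from the top of the 9782 genes.

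Vcan was at 134, 141, 173 and 134 in tumors and at 89.3, 44.6, 55.7 and 10.3 in spleens. The tissues did not overlap, though the splenic libraries spread 8.70-fold, the lowest resting on 7 UMIs. Its log2 difference was 1.86 (SE 0.26, adjusted p 6.2e-05, 4 of 4 pairs).

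Chil3 went the other way, at 722, 751, 787 and 709 in tumors and at 1147, 1317, 1261 and 1650 in spleens. Every splenic library was above every tumor library, and the log2 difference was -0.46 (SE 0.10, adjusted p 0.0022). Without cells of at least 10 UMIs of S100a8 and S100a9 summed, the levels were 680, 739, 776 and 712 in tumors and 1051, 1234, 1222 and 842 in spleens, and the log2 difference was -0.14 (adjusted p 0.22, within a range of 7.3e-06 to 0.24 over 19 alternatives). Without the Aire-/- anti-PD1 pair of libraries it was -0.29 (adjusted p 0.0074). Chil3 thus passed with all cells and did not pass without those that carried neutrophil markers.

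Fn1 was at 413, 386, 527 and 634 in tumors and at 779, 866, 868 and 525 in spleens. The Aire-/- anti-PD1 spleen was lower than its tumor, whereas the other 3 spleens were higher, so the ranges overlapped. The log2 difference of -0.26 did not pass (SE 0.17, adjusted p 0.22). Without the Aire-/- anti-PD1 pair it was -0.51 (adjusted p 4.8e-04, within a range of 4.8e-04 to 0.74 over 19 alternatives).

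Ace was at 84.0, 67.1, 81.2 and 78.2 in tumors and at 395, 493, 390 and 453 in spleens, and Cx3cr1 was at 69.5, 72.2, 55.8 and 62.1 in tumors and at 311, 321, 316 and 337 in spleens. Both genes varied less than 1.3-fold within a tissue and did not overlap between tissues. The log2 difference was -2.09 (SE 0.12, adjusted p 1.2e-08) for Ace and -1.92 (SE 0.10, adjusted p 4.3e-09) for Cx3cr1. Ear2 ranged from 30.4 to 56.4 in tumors and from 258 to 384 in spleens, Adgre4 from 32.1 to 46.1 and from 249 to 261, and Treml4 from 34.9 to 36.0 and from 176 to 203. Their log2 differences were -2.71, -2.26 and -2.03 (SE 0.19, 0.11 and 0.10), with the highest of the 3 adjusted p at 8.3e-08. All 5 nonclassical genes were higher in spleens in 4 of 4 pairs, and each lay within the lowest 2.52% of all genes by its log2 difference. Without the Aire-/- anti-PD1 pair, Chil3 kept its call and Fn1 alone changed its call, as given above. The other 8 members kept their calls. Their log2 differences were 1.41 (Ly6c2), 6.29 (Thbs1), 1.61 (Vcan), -2.03 (Ace), -2.62 (Ear2), -2.12 (Adgre4), -1.84 (Cx3cr1) and -1.97 (Treml4). The same 8 members kept their calls without the neutrophil, dendritic and B or NK marker cells together, an alternative chosen after seeing the data, at 1.71, 6.31, 1.88, -2.52, -3.17, -2.57, -2.15 and -2.45 in the same order.

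**Figure D2:**
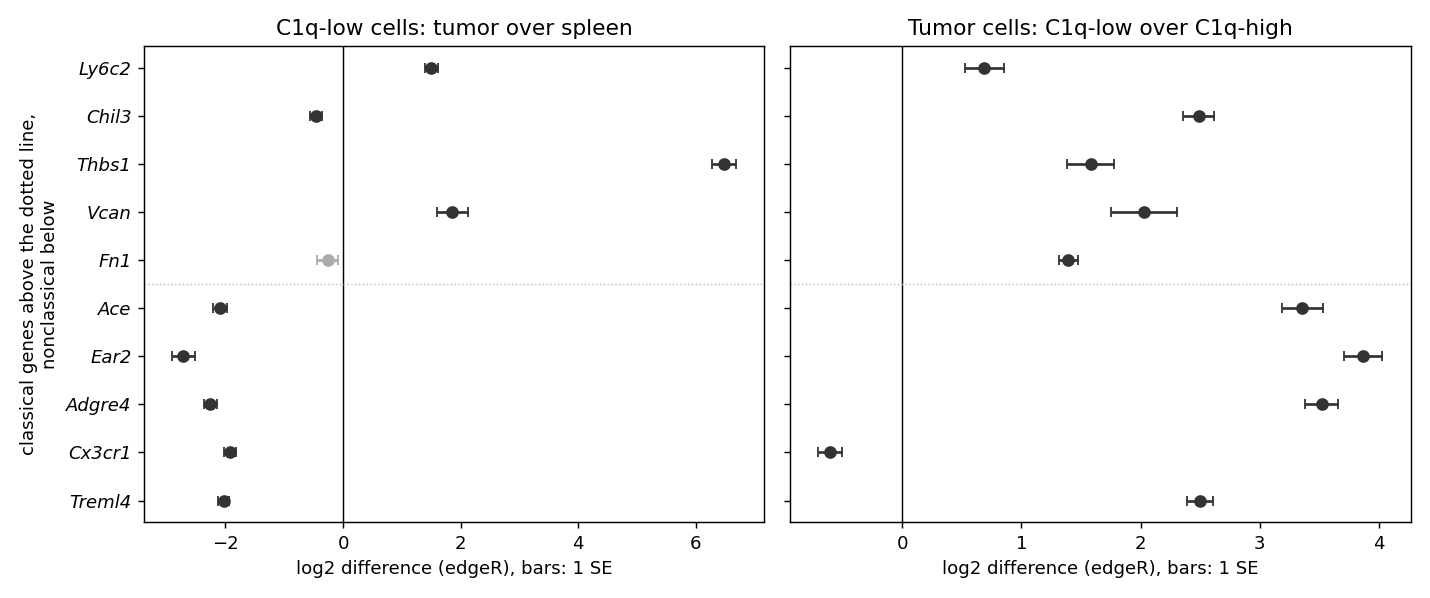
Log2 difference of each member in the tissue comparison (tumor over spleen, C1q-low cells) and in the class comparison (C1q-low over C1q-high, tumors), with bars of 1 SE from edgeR, where a grey point did not pass an adjusted p of 0.05. Fn1 was the only member that did not pass between tissues, and Cx3cr1 was the only member higher in C1q-high cells.

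Detection per cell was read beside the levels. A Thbs1 UMI was found in 65.4% to 77.5% of C1q-low tumor cells and in 2.38% to 8.73% of splenic ones. T cells of the same libraries, with at least 2 Cd3 UMIs and no Lyz2 UMI, gave 0.336% to 2.52% in tumors, at median depths of 7578.5 to 9079 UMIs, and 0 to 0.317% in spleens, at 5260 to 5814. Splenic Thbs1 was thus low but above its T cell level. An Ace UMI was found in 21.8% to 26.1% of C1q-low tumor cells and in 59.3% to 69.4% of splenic ones, beside at most 0.315% in T cells. Each cell was then thinned to 3000 UMIs and the gates were applied again, which left 741, 494, 504 and 395 tumor and 184, 121, 116 and 77 splenic C1q-low cells and 448, 325, 200 and 90 tumor C1q-high cells. Thinned values thus differ from the others in depth and in the cells of each class. Thinned shares in tumors and spleens were 14.2% to 18.5% and 47.3% to 56.2% for Ace and 56.1% to 77.0% and 2.48% to 6.03% for Thbs1. Thinned shares of Ear2, Adgre4 and Treml4 lay between 6.84% and 12.96% in tumors and between 37.5% and 55.4% in spleens, with T cells at or under 0.560%. For these 5 genes the tissue order in detection was therefore the same after thinning. Chil3 was found in more tumor than splenic cells, at 56.4% to 63.8% against 44.0% to 53.2% (thinned 47.0% to 52.7% against 41.3% to 45.7%), although its level was higher in spleens. Fn1 was found in 59.5% to 73.7% against 39.3% to 51.9%, and thinned in 45.5% to 57.0% against 37.7% to 52.2%, which overlapped. T cells cannot serve as background for 2 members, since they held Ly6c2 in 42.3% to 71.6% of tumor cells and Cx3cr1 in 14.8% to 27.1%. Splenic B cells held Ly6c2 in 2.29% to 3.27% and Cx3cr1 in 0.0742% to 0.153%. Tumor B cells, only 6 to 14 per library, held Ly6c2 in 14.3% to 66.7% and Cx3cr1 in 16.7% to 64.3%, so they gave no low level in tumors. Thinned Cx3cr1 was found in 12.7% to 15.8% of C1q-low tumor cells beside 6.49% to 13.8% of tumor T cells, so it was near the T cell level in tumors, and in 58.2% to 67.5% of splenic cells beside 0.560% to 1.47%.

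The members were also compared with each other cell by cell in the thinned C1q-low cells. Among splenic cells, Ear2 was detected in 70.7% of 263 cells with an Ace UMI and in 18.3% of 235 without, Adgre4 in 74.1% and 19.6%, and Treml4 in 63.5% and 14.9%. Ly6c2 was detected in 33.1% of the same Ace cells and in 86.8% of the others, and Fn1 in 21.3% and 79.6%. Vcan was found in 22.0% of 291 splenic cells with Ly6c2 and in 0 of 207 without, which allows up to 1.77%. Ace, Ear2, Adgre4 and Treml4 thus occurred together and apart from Ly6c2, Fn1 and Vcan in 4 of 4 spleens. Cx3cr1 was found in 76.8% of splenic cells with Ace and in 46.8% of those without, in 77.6% and 48.6% for Adgre4 and in 76.2% and 53.4% for Treml4, each higher in 4 of 4 spleens, and it was more frequent with Ear2 in 3 of 4, with Vcan in 2 of 4 and with Ly6c2 or Fn1 in 0 of 4. In tumors Ace also occurred with other nonclassical genes, with Ear2 in 31.9% of 351 Ace cells and in 4.71% of 1783 others, Treml4 in 35.0% and 4.88%, and Cx3cr1 in 31.6% and 11.1%. The separation from Ly6c2 was smaller there, with Ly6c2 in 63.8% of tumor Ace cells and in 85.9% of the others. Tumor cells with Thbs1 held Vcan more often than those without, in 35.0% against 13.3%. These shares describe cells that share a library and are given without a test.

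Cells with more UMIs of the 5 nonclassical genes than of the 5 classical genes made up 9.67%, 7.69%, 5.499% and 3.54% of C1q-low tumor cells and 45.3%, 49.3%, 51.6% and 60.7% of splenic ones. In thinned cells the shares were 9.58%, 8.30%, 5.75% and 3.04% in tumors and 40.8%, 47.1%, 49.1% and 58.4% in spleens. Both tissues held such cells, and the lowest splenic share was above the highest tumor share. These shares rest on the members themselves, so they cannot tell a different mix of cells from different levels per cell. The members were read again in cells above a threshold of Ly6c2 UMIs. Cells with at least 10 UMIs of S100a8 and S100a9 summed were left out first.

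Among the 1670 tumor and 236 splenic C1q-low cells with at least 5 Ly6c2 UMIs, Chil3 was at 831, 841, 871 and 753 in tumors and at 1538, 1732, 1759 and 1511 in spleens. Fn1 was at 452, 434, 576 and 693 in tumors and at 1170, 1334, 1430 and 1098 in spleens. Both genes were higher in each of the 4 spleens than in any tumor above this threshold. Ly6c2 itself was at 2829 to 3847 in these tumor cells and at 1775 to 2138 in these splenic cells, so the threshold did not match its level between tissues. With thinned cells chosen by at least 2 Ly6c2 UMIs of 3000, Chil3 was at 844 to 952 and 1475 to 1861 and Fn1 at 417 to 705 and 1080 to 1424, so the order was the same in cells of 1 depth that were gated again. Among the cells with at least 5 Ly6c2 UMIs, Thbs1 was at 1006 to 2041 in tumors and 22.4 to 37.3 in spleens, and Vcan at 149 to 186 and 23.7 to 126. The nonclassical genes were higher in spleens here as well, with Ace at 38.8 to 59.5 and 147 to 211, Ear2 at 19.4 to 36.2 and 60.2 to 169, Adgre4 at 20.2 to 29.6 and 79.9 to 136, Cx3cr1 at 46.9 to 58.2 and 250 to 363, and Treml4 at 18.8 to 27.0 and 64.4 to 86.4. Lyz2, which sets the gate, was at 8092 to 13452 in these tumor cells and at 22496 to 29818 in these splenic cells.

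At the other end, 193 tumor and 215 splenic C1q-low cells had no Ly6c2 UMI and fewer than 10 UMIs of S100a8 and S100a9. Ace was at 164, 189, 235 and 325 in tumors and at 863, 1228, 825 and 810 in spleens. Thbs1 was at 427, 336, 411 and 1216 in tumors and at 0, 0, 3.34 and 0 in spleens. Each tumor library was below each splenic library for Ace and above it for Thbs1. Ear2, Adgre4, Cx3cr1 and Treml4 were at 88.6 to 180, 67.5 to 159, 101 to 183 and 89.6 to 110 in tumors and at 648 to 986, 465 to 553, 327 to 451 and 350 to 465 in spleens. Fn1 was at 80.2 to 267 in tumors and 4.16 to 37.1 in spleens, the reverse of its order in Ly6c2-high cells, and Chil3 overlapped at 139 to 182 and 87.3 to 186. These levels are descriptive, since cells were chosen by a member gene and a count of 0 depends on depth.

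**Figure D3:**
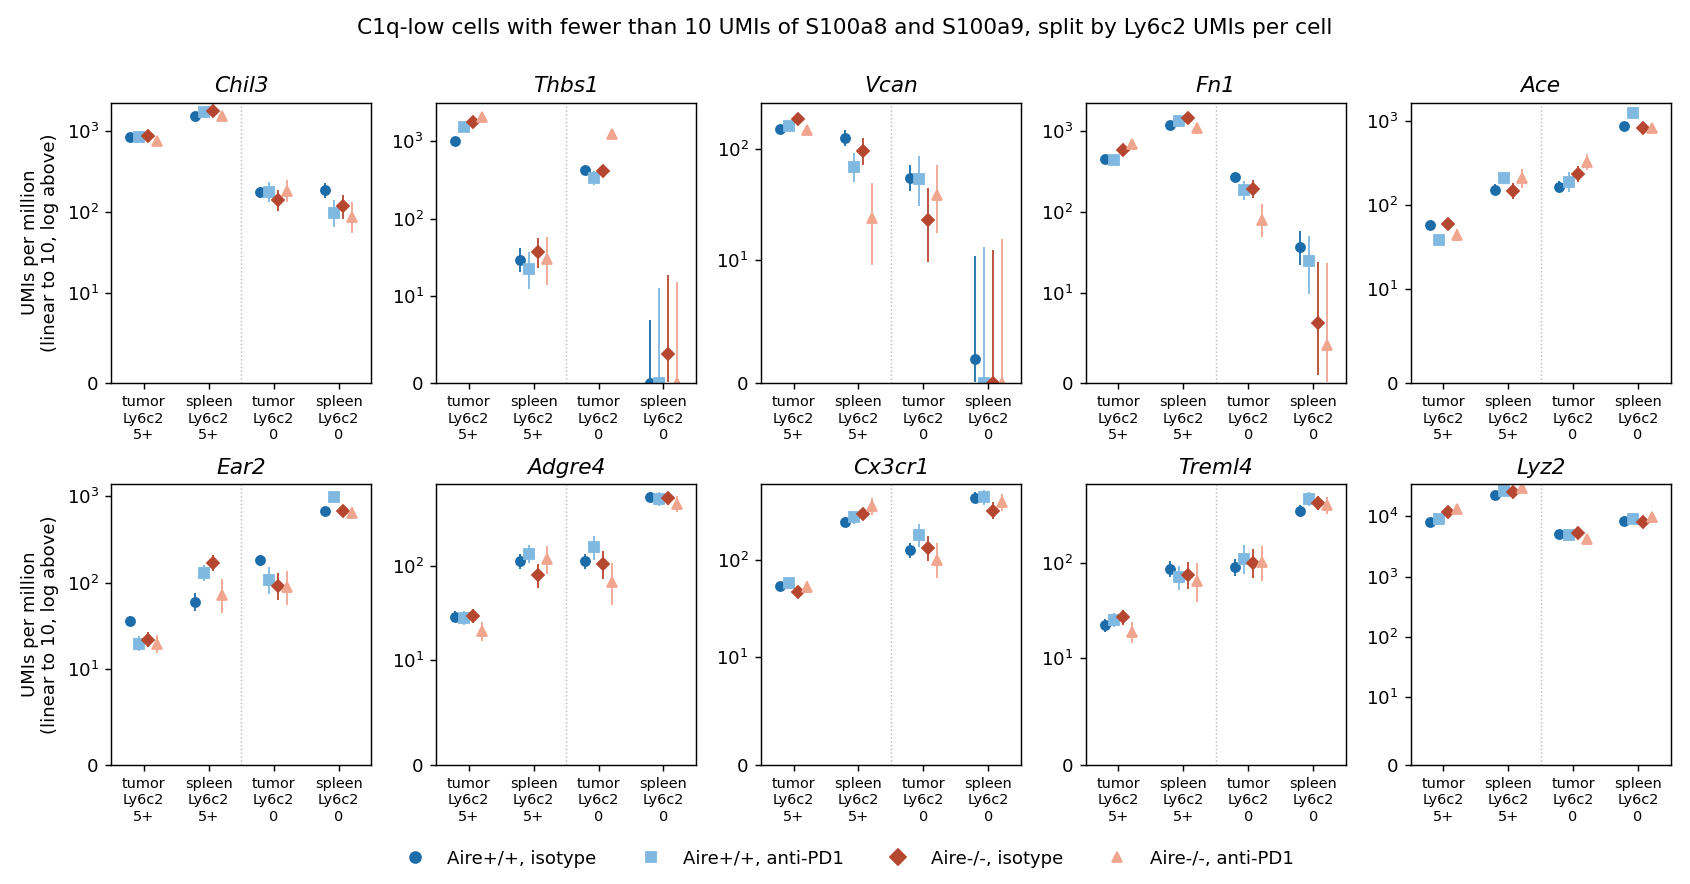
CPM of the other members and of Lyz2 in C1q-low cells split by Ly6c2 UMIs per cell, cells with 10 or more UMIs of S100a8 and S100a9 left out, per library, on an axis that is linear to 10 and logarithmic above, with exact Poisson intervals of 95%. Chil3 and Fn1 were higher in spleens than in tumors among cells with 5 or more Ly6c2 UMIs, and Fn1 was lower in spleens among cells with 0.

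The second comparison set C1q-low against C1q-high cells within each tumor library. It asks how the subset genes differ between cells with at most 1 UMI and cells with 2 or more UMIs of macrophage complement genes. Of 10586 genes tested, 45.4% passed, 22.8% higher in C1q-low and 22.6% higher in C1q-high cells. All 10 members were tested and passed, 9 higher in C1q-low cells and 1, Cx3cr1, higher in C1q-high cells. The median log2 difference of the members was 2.26 beside -0.03 over all genes. Without TMM the median over all genes was -0.17, and the share of called genes that were higher in C1q-low cells moved from 50.2% to 32.0%, with no change in a member's sign. Median depth was 15275, 15471, 14703 and 11683 UMIs in C1q-high cells, above the C1q-low cells of each library.

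The 4 nonclassical genes other than Cx3cr1 were nearly missing from C1q-high cells. Ace was at 9.58, 3.81, 12.8 and 9.09 there, which gave a log2 difference of 3.36 (SE 0.17, adjusted p 3.7e-07). Ear2 was at 1.44 to 3.90, Adgre4 at 3.14 to 5.11 and Treml4 at 6.12 to 8.07, with log2 differences of 3.87, 3.52 and 2.498 and an adjusted p of 1.4e-07 each. Ear2 was at rank 5 from the top of the 10586 genes. Cx3cr1 was at 125, 142, 96.7 and 70.4 in C1q-high cells, above the C1q-low cells of the same library in 4 of 4, although the ranges of the classes overlapped. Its log2 difference was -0.60 (SE 0.10, adjusted p 6.1e-04), and -0.23 in cells thinned and gated again (adjusted p 0.21, the highest of 10 alternatives, whose lowest was 4.9e-06). Whether depth or the change of cells in each class moved this value was not tested. Cx3cr1 thus went against the other nonclassical genes in this comparison of summed UMIs, while within C1q-low tumor cells it was more frequent in cells with Ace, Ear2, Adgre4 or Treml4 in 4 of 4 libraries.

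Among the classical genes, Chil3 was at 126, 114, 217 and 146 in C1q-high cells, with no overlap with the C1q-low cells and a log2 difference of 2.49 (SE 0.13, adjusted p 4.1e-07). Fn1 was at 198, 147, 232 and 240, lower than in every C1q-low library, with a log2 difference of 1.39 (SE 0.08, adjusted p 8.0e-07). Vcan was at 22.8, 22.3, 56.9 and 91.9 and differed by 2.03 (SE 0.28, adjusted p 2.1e-04). Thbs1 was at 240, 364, 633 and 1245, spread over 5.18-fold, and Ly6c2 at 1062, 1542, 2150 and 2551, so that both overlapped with C1q-low cells. Their log2 differences were 1.58 (SE 0.20, adjusted p 1.0e-04) and 0.69 (SE 0.16, adjusted p 0.0058), in 4 of 4 libraries. Thbs1 did not pass without the library block (1.31, adjusted p 0.055, the highest of 10 alternatives, whose lowest was 3.7e-08). The smallest difference of a classical gene was thus that of Ly6c2, which did not pass in cells thinned and gated again (0.31, adjusted p 0.061, within 2.6e-04 to 0.10 over 10 alternatives).

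At the thresholds of the gate, the 47 tumor cells with 4 Lyz2 UMIs and the 33 with 5 were at 2424 and 3814 for Ly6c2, 285 and 208 for Chil3, 536 and 827 for Thbs1 and 12.8 and 6.72 for Ace. The 331 tumor cells with 1 C1q UMI and the 103 with 2 were at 579 and 432 for Chil3, 1127 and 1170 for Thbs1, 58 and 48.8 for Ace and 22.5 and 17.6 for Ear2. Cells with 2 C1q UMIs were thus closer to those with 1 than to the 1928 cells with 6 or more, which had Chil3 at 116 and Ace at 5.04. The 7 splenic C1q-high cells held 62975 UMIs in all, with Ly6c2 at 413, Adgre4 at 270, Treml4 at 270 and no Thbs1 UMI, which allows up to 58.6.

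With 1 library per condition and tissue, genotype and treatment were compared as ratios of CPM with exact conditional intervals that cover counting error only, and without a test. Members past 2-fold in C1q-low tumor cells numbered 0 of 10 in each of 4 contrasts, where 3.59% of all genes with at least 30 UMIs were past it for Aire-/- over Aire+/+ with isotype, 4.7% for the same with anti-PD1, 1.42% for anti-PD1 over isotype in Aire+/+ and 2.28% in Aire-/-. The largest member ratios there were those of Ear2, at a log2 of -0.89 (interval -1.14 to -0.65) for Aire-/- over Aire+/+ with isotype and -0.82 (-1.06 to -0.59) for anti-PD1 over isotype in Aire+/+, both set by the 1 high value of the Aire+/+ isotype tumor, 56.4 beside 30.4 to 32.4. Thbs1 was higher in Aire-/- tumors with isotype, at 0.77 (0.73 to 0.81), and with anti-PD1, at 0.53 (0.49 to 0.58). Fn1 was at 0.35 (0.28 to 0.42) and 0.72 (0.64 to 0.80) in the same contrasts. These intervals leave out the variation between mice and between pools, which was not measured.

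In C1q-high tumor cells, 3 of 10 members were past 2-fold for Aire-/- over Aire+/+ with isotype, where 3.06% of all genes were, namely Ly6c2 at 1.02, Thbs1 at 1.40 (1.33 to 1.46) and Vcan at 1.32 (1.11 to 1.53). With anti-PD1, 4 of the 9 members with at least 30 UMIs were past it beside 11.3% of all genes, Thbs1 at 1.77, Vcan at 2.04, Ace at 1.26 on 19 and 40 UMIs, and Cx3cr1 at -1.02. Without neutrophil, dendritic and B or NK marker cells together, 3 of 9 were past it beside 9.50% of all genes. Each of these 3 was higher in Aire-/-, so Cx3cr1 was not among them. Thbs1 and Vcan were thus higher in the C1q-high cells of both Aire-/- tumors, in which fewer of the Lyz2-high cells were C1q-high. For anti-PD1 over isotype, 1 of 10 members was past 2-fold in Aire+/+ beside 1.31% of all genes (Ace at -1.33, 40 and 144 UMIs), and 1 of 10 in Aire-/- beside 5.05% (Ear2 at -1.44, 3 and 29 UMIs, interval -3.80 to 0.25).

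Splenic C1q-low cells had 0 of 10 members past 2-fold for Aire-/- over Aire+/+ with isotype beside 2.22% of all genes, 1 of 9 with anti-PD1 beside 3.78%, 1 of 10 for anti-PD1 over isotype in Aire+/+ beside 2.01% and 1 of 10 in Aire-/- beside 2.9%. The 1 member was Vcan each time, at -2.12 (-3.50 to -0.97), -1.003 (-1.49 to -0.54) and -2.44 (-3.82 to -1.31). The first and the last of these rested on the 7 Vcan UMIs of the Aire-/- anti-PD1 spleen. The middle value, for anti-PD1 over isotype in Aire+/+, lay just past 2-fold. No member was past it in that contrast without cells of at least 10 UMIs of S100a8 and S100a9 summed. Without neutrophil, dendritic and B or NK marker cells together, 1 of 10 members was. The contrasts share libraries, so these counts are not independent.

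Genes outside the 10 members were read from lists of related genes. Of 10 other classical monocyte genes, 9 were in the tables, and between tissues 3 passed higher in tumors and 3 higher in spleens, with a median of -0.09. All 9 passed higher in C1q-low than in C1q-high tumor cells, with a median of 1.65. The tissue values ran from Ms4a4c at 2.19 to Gsr at -0.64, and Ccr2 did not pass at -0.09. Over all genes, 26.9% passed higher in tumors and 25.3% higher in spleens, close to the shares of this list, and 22.8% and 22.6% passed higher in C1q-low and in C1q-high cells. Of 12 other nonclassical genes, 10 passed higher in spleens and 2, Nr4a1 at 1.46 and Itgax at 0.57, higher in tumors, with a median of -1.59. The list was led by Fabp4 at -3.41, Eno3 at -2.55 and Pglyrp1 at -2.53, the last of which neutrophils also express. Against C1q-high cells, 10 of the 12 passed higher in C1q-low cells and 2, Itgax at -1.22 and Cd300ld at -0.27, higher in C1q-high ones, with a median of 1.04. The medians over all genes were -0.06 and -0.03.

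Nr4a1, on which nonclassical monocytes depend, was at 1036.5, 1009, 1066 and 1072 CPM in C1q-low tumor cells and at 446, 519, 462 and 566 in spleens. It was therefore higher in tumors, where the nonclassical members were lower, and its log2 difference was 1.46 (SE 0.09, adjusted p 2.7e-08). Nr4a1 is also an early response gene like Fos, and the part of dissociation in its level was not tested. Of 10 monocyte regulators, Nr4a1 included, 5 passed higher in tumors, 1 higher in spleens and 4 did not pass, where 52.3% of all genes passed, with a median of 0.35, and Klf4 was at 1.69, Cebpb at 1.20 and Bcl2 at -1.23. Between classes 6 passed higher in C1q-low, 1 higher in C1q-high cells and 3 did not pass, where 45.4% of all genes passed, with a median of 0.29. Of 10 macrophage genes, 9 were tested between tissues and 8 passed higher in tumors even though the cells were C1q-low, with a median of 2.42, as Ms4a7 did at 5.22. Between classes 8 of the 10 passed higher in C1q-high cells and 2 did not pass, with a median of -0.87.

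Thbs1, Vcan and Fn1 act through receptors and matrix partners, of which 9 were listed. Between tissues 5 passed higher in tumors, 3 higher in spleens and 1 did not pass, beside 52.3% passing over all genes, with a median of 0.45. Sdc4, a syndecan that binds fibronectin, was at 182 to 214 in tumors and 1.03 to 8.36 in spleens, a log2 difference of 6.33 (SE 0.25, adjusted p 4.4e-10). Itga5, a subunit of the fibronectin receptor, differed by 2.22 and Cd44 by 1.04, while the thrombospondin receptor Cd36 was higher in spleens at -1.82, as was the integrin subunit Itga4 at -1.41. Cd47 differed by 0.45, and Tgfbi, a secreted matrix protein, by 2.17. Between classes 5 passed higher in C1q-low, 2 higher in C1q-high cells and 2 did not pass, beside 45.4% over all genes, with a median of 0.30.

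Among the genes tested with a mean of at least 50 CPM, those with the largest difference toward tumors included Ccl7, Ccl12, Cxcl2 and Cxcl11. Ccl7 had no UMI in the splenic cells and was at least 1097-fold higher in tumors against a floor of 3 UMIs over the 4 spleens. Camp, Ngp, Ltf, Wfdc21 and S100a8 led toward spleens, of which 4 are on the neutrophil list. Toward C1q-low cells the leading genes were Gzmc, Hp, Ifitm6, Chil3 and S100a9, and toward C1q-high cells Cd81, Ms4a7, Zmynd15, Cd72 and Gatm. C1qa, C1qb and C1qc, which set the classes, were removed before the adjustment and are not among the genes tested. Gzmc was at 6.03 and 6.45 in C1q-low cells of the Aire+/+ tumors and at 192 and 413 in those of the Aire-/- tumors, so its rank rested on 2 of 4 libraries.

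Across the 12 sums of cells (4 C1q-low tumor, 4 C1q-low splenic and 4 C1q-high tumor), 2638 genes were compared with the mean log2(CPM + 10) of each group of members by Pearson's r, as a description without a p, in sums that share libraries and depth. The nonclassical mean was followed most closely by Stk24 (r 0.997), Pygl (0.996), Glud1 (0.993), Cd300a (0.992) and Ceacam1 (0.992). Each of Ace, Ear2, Adgre4 and Treml4 followed the other nonclassical members at r of 0.9751 to 0.996, and Cx3cr1 at 0.721. The classical mean was followed by Ifitm2 (0.977), Nab1 (0.964), Mefv (0.958), F10 (0.954) and Sppl2a (0.953). Ly6c2 and Vcan followed the other classical members at 0.796 and 0.888, whereas Chil3, Thbs1 and Fn1 did not, at -0.10, 0.02 and 0.06. Chil3 and Fn1 followed the nonclassical mean instead, at 0.903 and 0.877. The sums include the cells that carried neutrophil markers. Cell by cell the order differed, since Chil3 was found in 30.4% of thinned splenic C1q-low cells with Ace and in 56.6% of those without.

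Members with close copies in the genome may lose or exchange UMIs in the counting. Windows of 55 bases were taken from GENCODE transcripts. Ly6c2 shared 12.8% of its windows with Ly6c1, and Chil3 shared 14.6% with Chil4. Ear2 shared 23.9% with Ear10 and 19.2% with Ear1, but 0.602% with Ear6. Within the last 500 bases the shares were 31.1% with Ly6c1, 16.7% with Chil4, 22.2% with Ear10 and 27.6% with Ear1. These bear on the counts only if 3′ ends were counted, and the study's methods name kits for both ends. With any other gene, 13.1% of all windows of Ly6c2, 23.9% of those of Chil3 and 37.0% of those of Ear2 were shared. Mean levels of the copies in C1q-low cells of tumors and spleens were 26.5 and 26.9 CPM for Ly6c1, 1.27 and 5.05 for Chil4, 0.307 and 3.80 for Ear1, and 0 and 0.351 for Ear10. The copies were thus far lower than the members, and whether UMIs were lost was not tested.

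Promoter sequences, from 250 bases before to 50 after a transcript start, were taken from a RefSeq promoter table (GRCm38.p6) that held 10 promoters of 8 of the 10 members, without Thbs1 and Fn1. Both strands were searched for 4 motifs. The core bound by PU.1, GGAAGT or ACTTCC on the other strand, was in 5 of the 10 member promoters and in 23.8% of all 32851. These 5 belong to 4 of the 8 members, since the 2 Ly6c2 promoters overlap and hold the same 2 cores. The Nr4a1 motif AAAGGTCA was in 0 of 10 beside 1.51% of all, the C/EBP motif TTGCGCAA in 0 beside 0.183%, and the AP-1 motif TGAGTCA in 0 beside 5.20%. A match is only a match of letters. Between the tissues, Adgre4, Treml4 and, with all cells, Chil3 were higher in spleens, whereas Ly6c2 was higher in tumors. Promoters with a PU.1 core are shown for a pair of classical and a pair of nonclassical members. They run 5′ to 3′ along the gene, with the core in capitals. They lie at chr15:75111922-75112221 (minus strand) for the first of 2 Ly6c2 promoters, chr3:106167515-106167814 (minus strand) for Chil3, chr17:55749734-55750033 (plus strand) for Adgre4 and chr17:48264045-48264344 (plus strand) for Treml4.
Ly6c2: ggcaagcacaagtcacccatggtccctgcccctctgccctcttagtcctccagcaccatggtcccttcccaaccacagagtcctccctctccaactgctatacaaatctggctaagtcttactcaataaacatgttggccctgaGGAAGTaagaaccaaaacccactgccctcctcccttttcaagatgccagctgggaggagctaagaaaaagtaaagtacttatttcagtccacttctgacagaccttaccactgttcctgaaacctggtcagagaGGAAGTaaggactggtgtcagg
Chil3: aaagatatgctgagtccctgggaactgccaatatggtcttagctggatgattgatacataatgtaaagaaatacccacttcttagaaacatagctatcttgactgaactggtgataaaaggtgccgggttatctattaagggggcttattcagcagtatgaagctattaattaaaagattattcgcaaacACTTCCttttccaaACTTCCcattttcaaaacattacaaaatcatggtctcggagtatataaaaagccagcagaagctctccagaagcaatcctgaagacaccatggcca
Adgre4: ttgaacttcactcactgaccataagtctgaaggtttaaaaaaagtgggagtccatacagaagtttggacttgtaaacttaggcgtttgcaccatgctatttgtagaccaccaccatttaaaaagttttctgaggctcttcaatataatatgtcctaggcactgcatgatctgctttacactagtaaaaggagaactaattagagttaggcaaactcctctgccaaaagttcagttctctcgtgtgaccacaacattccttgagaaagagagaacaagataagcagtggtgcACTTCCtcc
Treml4: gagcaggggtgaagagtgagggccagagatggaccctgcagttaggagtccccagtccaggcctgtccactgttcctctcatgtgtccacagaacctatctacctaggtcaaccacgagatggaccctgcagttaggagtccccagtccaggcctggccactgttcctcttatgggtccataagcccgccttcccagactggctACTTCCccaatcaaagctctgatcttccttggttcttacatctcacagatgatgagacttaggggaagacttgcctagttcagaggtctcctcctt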

How the data were processed

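The authors deposited, per library, UMI counts per gene and cell barcode without normalization, made on the mouse genome GRCm38 per the labels. Entries that share a symbol were summed, of which each member had 1. Cells with at least 200 genes and at most 20% mitochondrial UMIs were kept, as in the study's methods, and no doublets were removed. UMIs were summed per library over the gated cells and given as CPM (per 1000000 UMIs of the same cells). edgeR 4.0.16 (R 4.3.3) fitted all genes that passed filterByExpr with TMM scaling and quasi-likelihood tests, with condition or library as a block, and Benjamini-Hochberg adjustment over all genes. The SE was taken from the F statistic. Alternatives used DESeq2 1.42.0, other gates, thinning to 3000 UMIs (seed 1) with the gates applied again, cells left out by marker genes, and pairs of libraries left out in turn. Intervals are exact at 95% and cover counting error only. Python 3.11.15, numpy 2.4.6, scipy 1.17.1, pandas 2.3.3 and matplotlib 3.10.9 were used.

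The genes named are the 10 members, the listed related, copy and marker genes, the 5 with the largest difference in each direction at 50 CPM or more, and the 5 most like each group of members, over 12 sums in place of the planned 16 because splenic C1q-high cells were too few. Not every gene this rule gives is named, but list counts and medians cover all listed genes. The members and lists were chosen with earlier results of these data known, so p-values of members are not independent evidence. The 8 CD8+ libraries were not used in the comparisons.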

Additional observations from a re-analysis of the deposited data

Results flagged for a closer look

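Of 59 groups of 4 libraries examined, 6 held a library far from the other 3, and chance gives about 1 in 20 groups. Ear2 in C1q-low tumor cells was at 56.4 CPM in the Aire+/+ isotype library beside 30.4 to 32.4 in the others. In C1q-low cells of the Aire-/- anti-PD1 spleen, neutrophil markers summed to 44507 and conventional dendritic markers to 468. NK markers summed to 146 in the Aire-/- anti-PD1 tumor and to 99.4 in the Aire-/- isotype spleen, and red pulp macrophage markers to 110 in the Aire+/+ anti-PD1 spleen.

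For 4 of 20 effects of genotype or treatment on a member, both pairs of tumor libraries moved one way and both pairs of splenic libraries the other. Random signs would give this pattern for 1 in 8 effects, and these differences between tissues were not tested. Log2 ratios of anti-PD1 over isotype in Aire+/+ and Aire-/- were 0.50 and 0.27 in tumors and -0.82 and -0.87 in spleens for Thbs1, the splenic values resting on 9 to 46 UMIs per library. For Ace they were -0.32 and -0.054 in tumors and 0.32 and 0.22 in spleens. Log2 ratios of Aire-/- over Aire+/+ with isotype and with anti-PD1 were -0.32 and -0.22 in tumors and 0.021 and 0.072 in spleens for Cx3cr1. For Treml4 they were -0.031 and -0.039 in tumors and 0.21 and 0.095 in spleens.

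The CD8+ sorts, which the comparisons did not use, held 6 tumor and 36 splenic cells within the C1q-low gate. In the tumor cells, where 3 UMIs correspond to 29.2 CPM, Ly6c2 was at 867, Chil3 at 127, Thbs1 at 623, Vcan at 48.7, Fn1 at 38.9, Ace at 68.2 and Adgre4 at 38.9. The 1 cell of the Aire-/- anti-PD1 sort held 61 of the 64 Thbs1, 5 of 5 Vcan and 44 of 89 Ly6c2 UMIs. In the splenic cells, where 3 UMIs correspond to 5.01, Ly6c2 was at 6.68, Ear2 at 8.35 and Treml4 at 224. The splenic cells also held Xcr1 at 344, Flt3 at 215 and Cd8a at 528, genes chosen after their values were seen, and no Ace UMI, which allows up to 6.16.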

How the results depend on the processing

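No member's difference changed its sign under any alternative run for either comparison. Of 190 values of members between tissues under 19 alternatives, 186 kept their side of the threshold. Chil3 no longer passed without cells of at least 10 UMIs of S100a8 and S100a9 (-0.14, adjusted p 0.22) or without neutrophil, dendritic and B or NK marker cells together, an alternative chosen after seeing the data (-0.15, 0.24), over a range of adjusted p from 7.3e-06 to 0.24. Fn1 passed without TMM (-0.65, 0.0038) and without the Aire-/- anti-PD1 pair. Its values without each pair ran from -0.51 to -0.086, and its adjusted p over all alternatives from 4.8e-04 to 0.74.

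Of 100 values between classes under 10 alternatives, 96 kept their side. Ly6c2 did not pass without the library block (0.60, 0.10) or thinned to 3000 UMIs and gated again (0.31, 0.061), over 2.6e-04 to 0.10. Thbs1 did not pass without the block (1.31, 0.055, the highest from 3.7e-08), nor Cx3cr1 when thinned (-0.23, 0.21, the highest from 4.9e-06). The causes were not tested.

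Genes past the threshold numbered 3213 between tissues when thinned, with fewer genes tested, and 3140 between classes without the block and 2166 when thinned. Leaving out 1 pair or library gave 4151 to 5048 and 3403 to 5389. Of the 118 member ratios between conditions, 12 were past 2-fold, 28 past 1.5-fold, and 7 of 98 past 2-fold when thinned. Per contrast, the shares over all genes ran from 1.31% to 11.3%, from 6.07% to 30.1% and from 1.68% to 10.9% in the same order.

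Splenic sums of 681738 to 1947502 UMIs limit genes with few UMIs, such as splenic Thbs1 and Vcan. A pool of mice per library gives no measure of variation between mice, and genotype and treatment have no replicate.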
